A study of Mus musculus with 9 samples.

Results

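Stefins and cystatins are small proteins that block papain-like cysteine proteases, the cathepsins. Stefins, the type 1 inhibitors, stay inside the cell. Cystatins of type 2 carry a signal peptide and are secreted. Mice have several close copies of the human stefin A gene in 1 cluster on chromosome 16, and these copies are known from stratified epithelia and from neutrophils. Stefin A and cystatin E/M are also known from the cornified layer of squamous epithelium, which in the mouse lines the forestomach, the upper and keratinised part of the stomach.

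The 8 genes described here were read in newborn mouse stomach. Arrays KO 1 to KO 5 came from 5 mice without the leucine zipper transcription factor C/EBPβ, arrays WT 1 to WT 4 came from 4 wild-type mice, and each mouse had its own array. The labels give the genotype as C/EBPbeta KO or WT and state neither strain, nor sex, nor the removed part of the gene. They also give no treatment beyond killing at birth, and their source field calls the mice old, against the protocol. The members are Stfa1, Stfa2, Stfa2l1, Stfa3 and BC100530 of the stefin A cluster, stefin B (Cstb), cystatin C (Cst3) and cystatin E/M (Cst6). BC100530 is named Cstdc5 in RefSeq. Every non-control probe with 1 of these names was taken, which gave 8 probes, 1 per gene, out of 55681. The set was chosen by the measured log2 levels of Stfa1 and Stfa2, which were lower in the knockout, so the knockout and wild-type values of the members are given as a description, without a p-value.

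All 8 probes were well above background on all 9 arrays. A level here means the processed signal in log2 after subtraction of the 75th percentile of its array, and that percentile lay between 221 (WT 4) and 472 (KO 3). The arrays carried the signal their labels call for, with Cebpb at 2.24% of the wild-type level in the knockout. Several features of single arrays bear on the members. WT 4 differed from WT 1 to WT 3: it was the lowest wild-type array for all 8 members, and for 5 of them the lowest of all 9 arrays. KO 2, KO 4 and KO 5 lacked Y-linked signal (mean log2 level of 4 Y-linked genes between -7.06 and -5.16, against -0.39 to 0.04 on the other 6 arrays), so genotype and sex were not balanced. WT 3, WT 4, KO 4 and KO 5 shared slide 1, WT 1, WT 2 and KO 2 shared slide 4, and KO 3 and KO 1 lay on slides 2 and 3. The gastric label was borne out, with all 10 gastric epithelium markers, among them Atp4a, Cblif and Tff1, well above background on all arrays.

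The stefin A genes resemble each other closely, and this limits how far 1 probe can be ascribed to 1 gene. The probes of Stfa3 (chromosome 16, 36450693 to 36450752, mm9, minus strand) and BC100530 (chromosome 16, 36359525 to 36359584, mm9, minus strand) read the same end of the coding sequence. Over the 39 bases they share up to the stop codon, 84.6% of the bases were identical. The stretches are shown because these probes also gave nearly the same pattern over the arrays, and capitals mark the 6 positions that differ.
Stfa3: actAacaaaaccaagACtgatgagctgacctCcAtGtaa
BC100530: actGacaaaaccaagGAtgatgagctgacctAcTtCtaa
The Stfa2l1 probe spans 1759 bases of the genome (chromosome 16, 36160118 to 36161876, mm9), that is, it crosses a splice junction. The array design lists 2 RefSeq transcripts for it, that of Stfa2l1 and that of Stfa2, so its signal cannot be ascribed to either gene alone. It is shown without capitals because no base is singled out.
Stfa2l1: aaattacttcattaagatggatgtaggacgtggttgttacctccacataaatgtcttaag
The Stfa1 probe (36285398 to 36285457, plus strand) and the Stfa2 probe (36404032 to 36404089, minus strand), both on chromosome 16 of mm9, lie near the 3′ end of their transcripts, from positions 358 and 365. Both hold the letters AATAAA, and at their best ungapped overlap 40 of 58 bases were identical. Among the relatives outside the 8 genes, the Csta2 probe overlapped that of BC100530 over 28 bases with 27 identical. How much each probe bound a relative was not tested.

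RefSeq (GRCm38.p6) promoter windows were found for 6 of the 8 genes. Over the 250 bases before the transcription start, Stfa2 and Stfa2l1 were 89.4% identical after global alignment, and the 10 pairs of cluster genes ranged from 70.1% (Stfa2l1 and BC100530) to that value. Against Cst3, the same measure lay between 42.2% and 45.9% for the stefin A genes. The windows are printed because 5 cluster members varied together over the arrays and because the study removed a C/EBP factor. Cst3, outside the cluster, varied with them too. Capitals mark matches on either strand to the letters TTNNGNAA, which follow the C/EBP consensus, to the shorter letters GCAAT, and to TTTAAA, which was chosen after the sequences were seen.
Stfa1, chr16:36276898-36277147, plus strand: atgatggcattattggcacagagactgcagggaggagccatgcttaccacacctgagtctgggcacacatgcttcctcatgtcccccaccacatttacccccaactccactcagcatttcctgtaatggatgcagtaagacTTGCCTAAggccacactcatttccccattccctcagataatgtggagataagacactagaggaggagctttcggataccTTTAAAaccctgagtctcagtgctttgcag
Stfa2, chr16:36408364-36408613, minus strand: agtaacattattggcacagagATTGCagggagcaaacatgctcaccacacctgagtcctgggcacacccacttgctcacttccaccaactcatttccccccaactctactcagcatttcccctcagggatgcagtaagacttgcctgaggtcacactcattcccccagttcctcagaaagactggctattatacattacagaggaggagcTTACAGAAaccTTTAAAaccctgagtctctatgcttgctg
Stfa2l1, chr16:36156561-36156810, plus strand: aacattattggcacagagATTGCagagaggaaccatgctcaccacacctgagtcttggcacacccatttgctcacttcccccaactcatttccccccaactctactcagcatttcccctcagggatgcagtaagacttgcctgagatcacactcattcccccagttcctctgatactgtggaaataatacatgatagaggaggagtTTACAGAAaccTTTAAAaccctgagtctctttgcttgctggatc
Stfa3, chr16:36455393-36455642, minus strand: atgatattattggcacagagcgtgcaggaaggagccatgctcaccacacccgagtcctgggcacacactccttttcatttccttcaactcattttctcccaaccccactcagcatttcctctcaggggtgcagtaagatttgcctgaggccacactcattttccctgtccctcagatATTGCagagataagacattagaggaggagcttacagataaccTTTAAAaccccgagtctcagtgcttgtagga
BC100530, chr16:36367571-36367820, minus strand: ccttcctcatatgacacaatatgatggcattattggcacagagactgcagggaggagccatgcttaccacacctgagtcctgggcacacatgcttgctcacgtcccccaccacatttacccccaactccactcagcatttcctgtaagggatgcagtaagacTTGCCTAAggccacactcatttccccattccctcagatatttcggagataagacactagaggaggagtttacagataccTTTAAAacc
All 5 windows held TTTAAA, which was present in 12.1% of 32851 promoter windows of that length. In Stfa1, Stfa2, Stfa2l1 and Stfa3 it began between 29 and 33 bases before the start, and in BC100530 at 9. TTNNGNAA matched in Stfa1, Stfa2, Stfa2l1 and BC100530, against 36.8% of all windows, and GCAAT in Stfa2, Stfa2l1 and Stfa3, against 23.1%. In Stfa1 and BC100530 the TTNNGNAA match was the same 8 bases, TTGCCTAA, and in Stfa2 and Stfa2l1 it was TTACAGAA next to the TTTAAA. The Cst3 window had none of the 3. The 5 cluster windows resemble each other closely, so their matches are not independent. The shares of all windows therefore do not show whether matches are more frequent here. These are matches of letters in 1 window per gene, and binding was not measured.

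Among the stefin A genes, Stfa1 and Stfa2 had the largest differences between genotypes, Stfa2l1 a smaller one, and Stfa3 and BC100530 the smallest. Stfa1, an intracellular inhibitor of cathepsins, had levels of 4.68, 3.13, 4.93 and 1.83 on WT 1 to WT 4 and of 0.95, 1.93, 1.18, 2.58 and 0.94 on KO 1 to KO 5. WT 4 lay within the knockout range, and the other 3 wild-type arrays lay above all knockout arrays. The mean was 3.64 ± 1.44 (SD, n = 4) for wild type against 1.51 ± 0.72 (SD, n = 5) for knockout, a difference of -2.13 ± 0.62 (SE), or 22.9% of the wild-type level. In processed signal, Stfa1 ran from 789 to 10547 over the wild-type arrays and from 568 to 2729 over the knockout arrays.

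Stfa2, of the same cluster, had levels of 2.11, 0.78, 1.95 and -0.54 on WT 1 to WT 4 and of -1.44, -0.85, -0.85, -0.06 and -0.42 on KO 1 to KO 5. As for Stfa1, WT 4 was within the knockout range and 3 wild-type arrays were above it. The difference was -1.80 ± 0.52 (SE), or 28.8% of the wild-type level.

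The Stfa2l1 probe, which also lists Stfa2, read 0.42, -0.52, 0.83 and -1.94 on WT 1 to WT 4 and -2.45, -2.02, -0.82, -0.57 and -0.95 on KO 1 to KO 5. Here WT 2 was close to KO 4, the highest knockout array, and WT 4 was close to KO 2, the next to lowest. The difference was -1.06 ± 0.58 (SE), or 48.0% of the wild-type level, and it was -0.68 without WT 3 and -1.61 without WT 4.

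Stfa3 had levels of 3.42, 2.65, 3.97 and 1.28 on WT 1 to WT 4 and of 2.16, 1.92, 2.59, 2.65 and 1.50 on KO 1 to KO 5. The groups overlapped at both ends, as KO 4 was about level with WT 2 and WT 4 was below every knockout array. The difference was -0.67 ± 0.49 (SE), or 63.0% of the wild-type level, and it was -0.29 without WT 3 and -1.18 without WT 4. BC100530, another gene of the cluster, read 6.30, 5.49, 6.36 and 4.04 on WT 1 to WT 4 and 5.04, 5.01, 5.29, 5.17 and 4.22 on KO 1 to KO 5. WT 4 was again the lowest of all arrays and KO 5 the next. Its difference was -0.61 ± 0.45 (SE), or 65.7% of the wild-type level, and it was -0.35 without WT 1, -0.33 without WT 3 and -1.11 without WT 4.

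**Figure D1:**
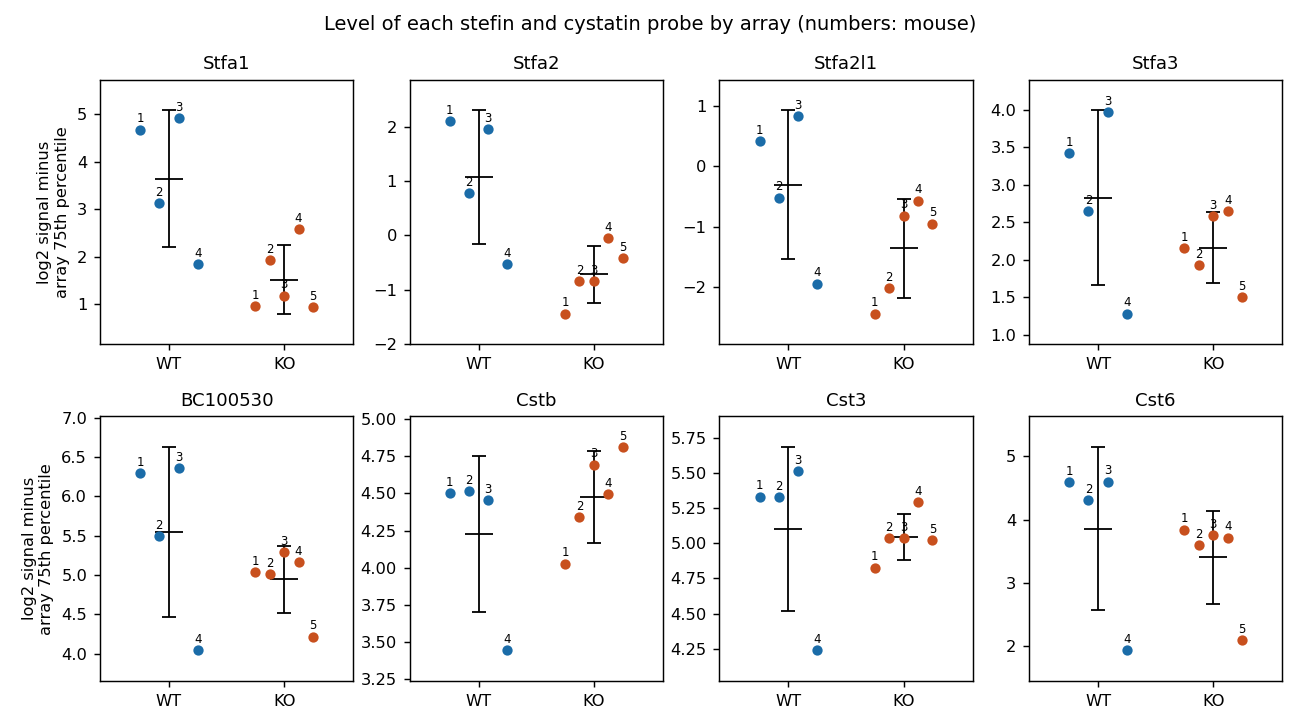
Log2 level of each of the 8 probes (vertical axis, log2 scale relative to the 75th percentile of each array, with its own range per panel) on the wild-type and knockout arrays. Points are arrays, numbered by mouse, and bars are the mean ± SD (n = 4 WT, n = 5 KO). WT 4 is the lowest wild-type array in all 8 panels.

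The members outside the cluster differed less between genotypes. Cst6, the secreted inhibitor of legumain and cathepsin L in cornifying epithelium, had levels of 4.59, 4.31, 4.60 and 1.94 on WT 1 to WT 4 and of 3.84, 3.60, 3.76, 3.72 and 2.10 on KO 1 to KO 5. WT 4 and KO 5 lay far below the rest of their groups, while the other arrays formed a knockout set and a wild-type set that did not overlap. The difference over all arrays was -0.46 ± 0.58 (SE), and without WT 4 and KO 5 it was -0.77 ± 0.16 (SE). These arrays were left out after the data were seen and lay furthest from their groups for Cst6. The smaller SE and the separation thus partly follow from that choice. How many of all probes separate without both arrays was not counted. Leaving out single arrays gave -1.10 without WT 4, -0.13 without KO 5, -0.21 without WT 1 or WT 3 and -0.30 without WT 2.

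Cst3, an inhibitor secreted by most cell types, read 5.33, 5.33, 5.51 and 4.24 on WT 1 to WT 4 and 4.83, 5.04, 5.04, 5.29 and 5.02 on KO 1 to KO 5. All arrays but WT 4 lay within a narrow band. The difference was -0.06 ± 0.25 (SE), and -0.35 ± 0.15 (SE) without WT 4. Cstb, the stefin of most tissues, read 4.50, 4.51, 4.46 and 3.45 on WT 1 to WT 4 and 4.03, 4.34, 4.69, 4.50 and 4.81 on KO 1 to KO 5. It was the 1 member with a higher mean in the knockout, at 0.25 ± 0.26 (SE), and without WT 4 the difference was -0.02 ± 0.19 (SE).

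Over the 8 members, 7 had a lower mean in the knockout, against 51.1% of the 30198 probes kept for testing. The median difference of the 8 was -0.64, beside -0.01 over all probes. By limma with Benjamini-Hochberg adjustment over all probes, 0.139% of the probes passed (0.0662% lower and 0.0729% higher) and none of the 8 members did. At an unadjusted p below 0.05 were 2 of the 8, beside 8.06% of all probes. For none of the 8 did the knockout arrays all lie below all wild-type arrays, which held for 1.14% of all probes, and for none did they all lie above, which held for 2.02%. With WT 4 left out, all 5 knockout arrays lay below WT 1 to WT 3 for 6 of the 8 members, the exceptions being Stfa3 and Cstb, where this held for 6.33% of all probes. In that fit Stfa2 was the 1 member that passed, beside 0.51% of all probes. Because the contrast chose the members, these counts describe them and support nothing further.

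Within slides 1 and 4 the differences of the stefin A genes were negative, on the same arrays that chose the members. This split describes the contrast and supports nothing further. Slide 1 held 2 knockout and 2 wild-type arrays. There the difference was -1.62 ± 1.16 (SE) for Stfa1, -0.94 ± 0.86 (SE) for Stfa2 and -0.21 ± 0.95 (SE) for Stfa2l1. Within slide 4, with KO 2 against WT 1 and WT 2, it was -1.98, -2.29 and -1.98 in that order. In a fit that included the Y-linked level, Stfa1 lay at -2.54 ± 0.81 (SE) and Stfa2 at -2.28 ± 0.65 (SE), whereas Cst6 lay at -0.03 ± 0.75 (SE).

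The stefins also varied with each other around the genotype means, with both groups pooled. After each group's mean was removed, the 10 pairs among the 5 cluster members had Pearson r between 0.70 and 0.97 over the 9 arrays, and between 0.68 and 0.94 over 7 arrays without WT 4 and KO 5. With 1 array left out, the lowest r was 0.28 for Stfa2l1 and BC100530, 0.32 for Stfa2 and BC100530 and 0.48 for Stfa2 and Stfa3. Stfa3 and BC100530, whose probes share most of their bases, had the highest r (0.97), followed among cluster pairs by Stfa2 and Stfa2l1 (0.93), whose probe lists both transcripts, and Stfa1 and Stfa2 (0.91). Probes that bind each other's transcripts would share signal, and that part was not tested. Cst6 followed BC100530 (0.95) and Stfa3 (0.89) more closely than Stfa1 (0.75), Stfa2 (0.60) or Stfa2l1 (0.52). The covariation was not particular to the cluster. Cst3, on chromosome 2, had r between 0.85 (BC100530) and 0.89 (Stfa2) with the 5 cluster members, above some of the cluster pairs. Without WT 4 and KO 5 its r lay between 0.33 (BC100530) and 0.81 (Stfa2l1). Cstb had r between 0.57 (Stfa1) and 0.86 (Stfa2l1) with them over the 9 arrays. All points share the same 9 libraries and their scaling.

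**Figure D2:**
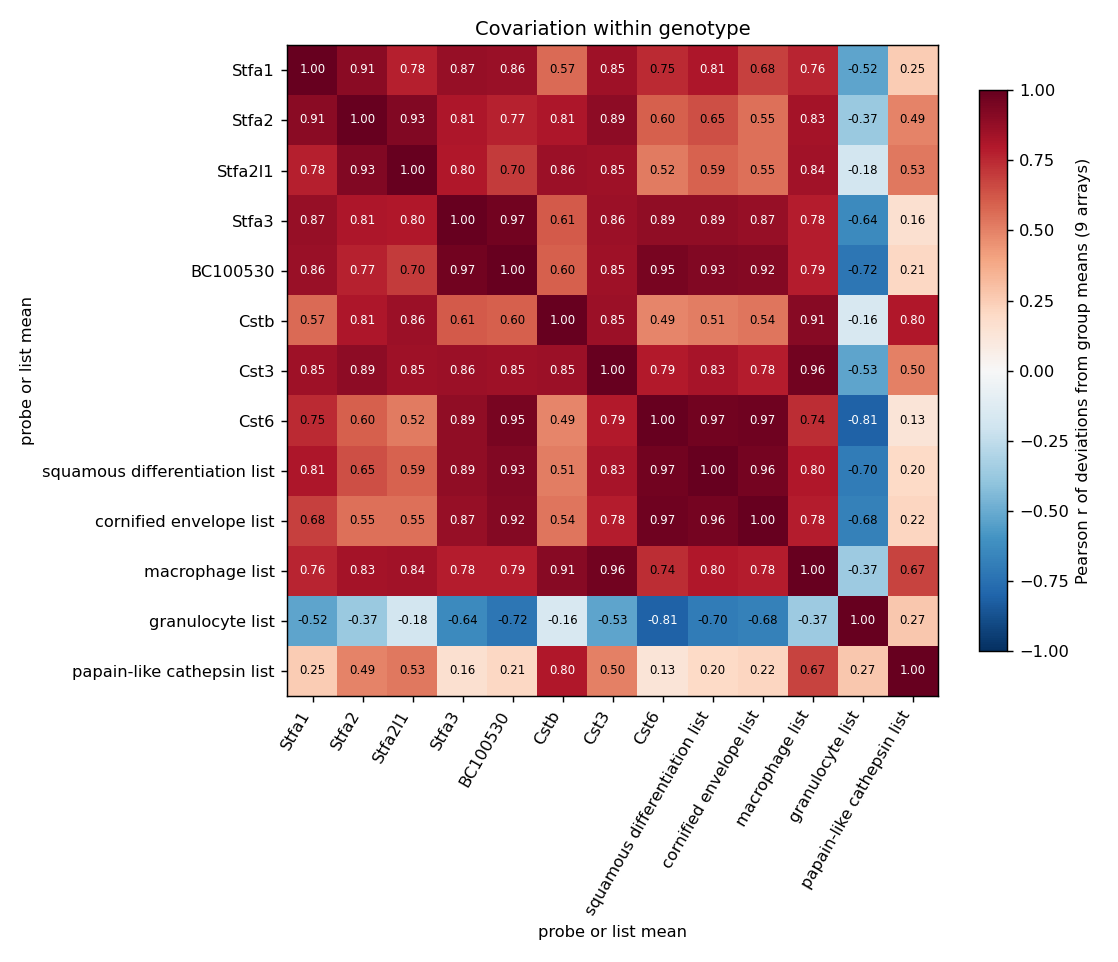
Pearson r between deviations from the group means over 9 arrays, for the 8 probes and the mean levels of 5 gene lists (rows and columns), with red for positive and blue for negative r. The stefin A block spans 0.70 to 0.97, and the squamous and cornified envelope lists reach 0.97 with Cst6. Cst3, outside the cluster, has r of 0.85 to 0.89 with the stefin A probes.

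Markers of the squamous forestomach were set beside the members. Of 15 squamous differentiation genes tested, none passed by limma with adjustment over all probes, where 0.139% of all probes passed. An unadjusted p below 0.05 was reached by 2 of the 15, beside 8.06% of all probes. Of the 15, 13 had a lower mean in the knockout, beside 51.1% of all probes. The median difference of the 15 was -0.72, beside -0.01 over all probes. Calm4, a calmodulin-like gene of keratinocytes, lay at -3.07 ± 0.88 (SE; limma adjusted p = 0.379) and Lce3c, a late cornified envelope gene, at -2.19 ± 0.65 (SE; limma adjusted p = 0.403). Elovl4, which elongates the fatty acids of barrier lipids, lay at -0.72 ± 0.36 (SE) and Casp14, a caspase of cornification, at -1.37 ± 0.65 (SE). Without WT 4 and KO 5, Calm4 and Krt10, a keratin of suprabasal cells, passed, beside 0.477% of all probes. These arrays were left out after the data were seen and were the lowest of their groups on this same list. The calls in that fit therefore only describe the genes. The mean level of the list, relative to the wild-type mean, was 0.64, 0.51, 0.76 and -1.91 on WT 1 to WT 4 and -0.99, -0.74, -0.63, -0.16 and -2.43 on KO 1 to KO 5, so WT 4 and KO 5 were far below the rest. In whole stomachs, fewer squamous cells and less RNA per cell cannot be told apart.

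Deviations of Cst6 from its group means followed this list (r = 0.97 over 9 arrays), but the relation rested on WT 4 and KO 5, without which r was 0.03. For BC100530 the r was 0.93, and 0.39 without these arrays. For Stfa1 it was 0.81, and 0.75 without them. With the list mean as a covariate, a fit added after the data were seen, the difference was -1.31 ± 0.45 (SE) for Stfa1 and -1.25 ± 0.47 (SE) for Stfa2. In the same fit it was -0.50 ± 0.56 (SE) for Stfa2l1, 0.04 ± 0.29 (SE) for Stfa3, 0.07 ± 0.23 (SE) for BC100530 and 0.46 ± 0.21 (SE) for Cst6. In this fit Stfa1 and Stfa2 stayed below 0, Stfa3 and BC100530 lay near 0, and Cst6 lay above it. Stfa1 and Stfa2 chose the set on these same arrays, so their sign only describes them. The part of squamous cells in the members' differences was not tested.

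**Figure D3:**
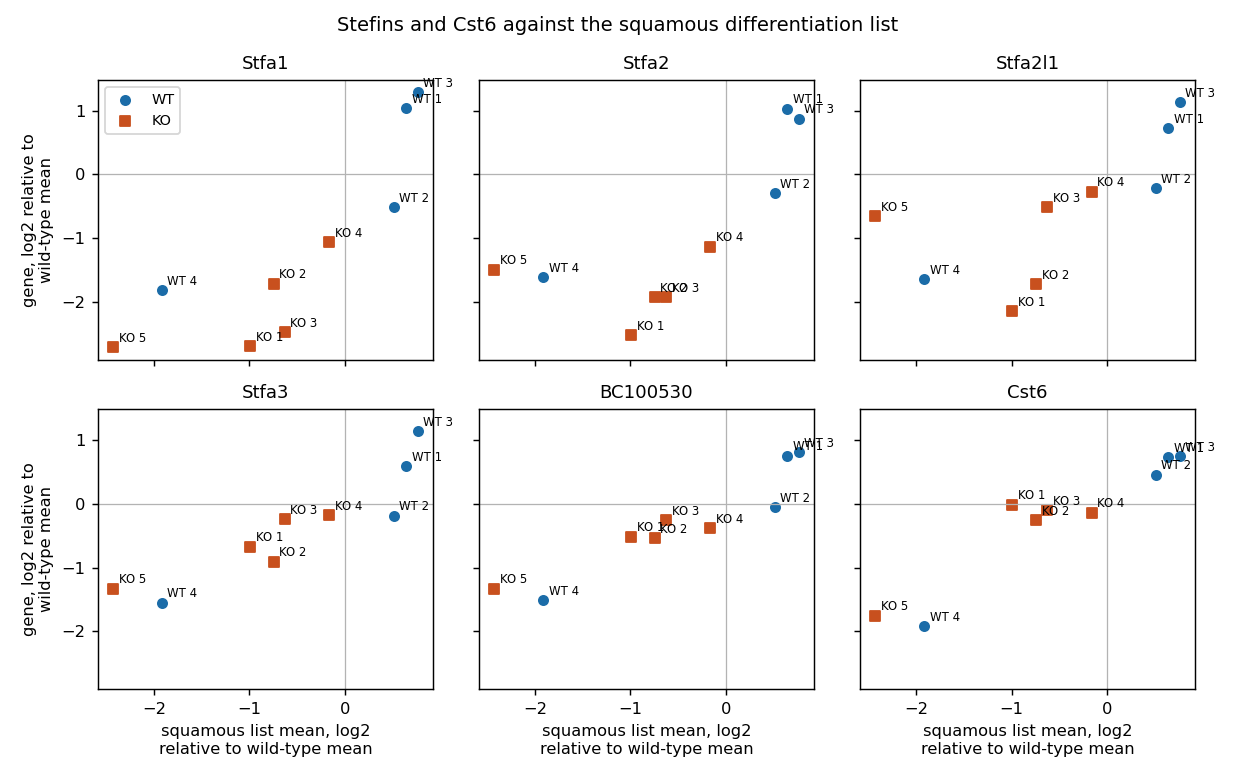
Level of 5 stefins and Cst6 (vertical axis, log2 relative to the wild-type mean) against the mean of the squamous differentiation list (horizontal axis, same scale), 1 point per array. WT 4 (-1.91) and KO 5 (-2.43) lie far left. In the Stfa1 panel KO 1, KO 3 and KO 5 lie below WT 4, and KO 2 and KO 4 lie above it.

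**Figure D4:**
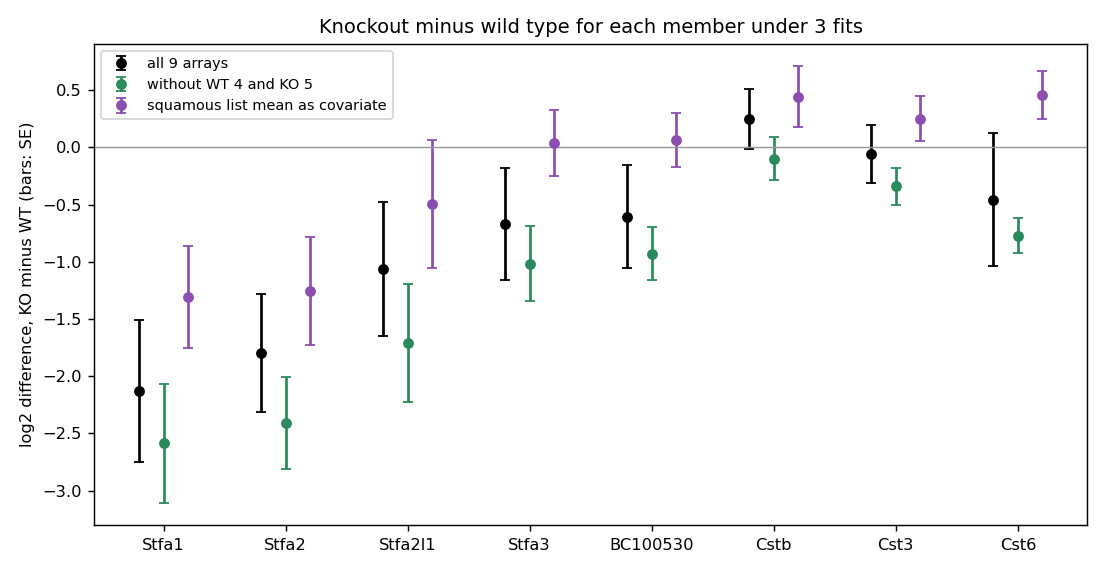
Log2 difference, knockout minus wild type, of each member with its SE over all 9 arrays, without WT 4 and KO 5, and with the squamous list mean as a covariate. Stfa1 and Stfa2, whose lower values on these arrays chose the set, lie below -1 in these 3 fits, while Cst6 changes from -0.77 to 0.46.

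Cornified envelope genes were read as partners of the stefins in the cornified layer. By limma with adjustment over all probes none of 14 passed, and none had an unadjusted p below 0.05. Of the 14, 9 had a lower mean, beside 51.1% of all probes, with a median difference of -0.17. Tgm3, a transglutaminase that cross-links the envelope, lay at -0.43 ± 0.25 (SE), Lor, the main envelope protein loricrin, at -0.59 ± 0.44 (SE), Tgm5 at 0.38 ± 0.31 (SE) and Sprr1a, a small proline-rich envelope protein, at 0.48 ± 0.45 (SE).

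Granulocytes are another known source of stefin A transcripts in the mouse. Of 16 granulocyte genes 9 were tested and S100a9, a calcium-binding protein gene of neutrophils, was the 1 that fell (-2.77 ± 0.36 SE, limma adjusted p = 0.0206). Over all probes, 0.0662% were called lower. The S100a9 call was lost with slide as a block. The median difference of the 9 was -0.12. Of the 16, S100a8, S100a9, Ltf, Camp, Elane, Mpo, Lcn2 and Csf3r were well above background on all 9 arrays and Ly6g on 5. Mmp8 was so on 1 array, Cxcr2 and Retnlg each on 2, and Ngp, Prtn3 and Mmp9 on none, while the brightest Itgam probe lacked a value on some array and was not tested. The list mean, relative to the wild-type mean, ran from -0.24 to 0.51 in wild type and from -0.96 to -0.11 in knockout. S100a9, with the largest difference of the list, weighs on this mean. Of the 9 tested genes 6 had a lower mean in the knockout. The other 3, S100a8 (0.11 ± 0.33 SE), Ltf (0.32 ± 0.51 SE) and Camp (0.16 ± 0.45 SE), had a higher one. In deviations from group means the list mean ran against Stfa1 (r = -0.52) and Stfa2 (r = -0.37), and without WT 4 and KO 5 the r was 0.13 and 0.25. The part of granulocytes in the stefin difference was not tested.

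Of the macrophage markers none of 10 tested passed (limma; none at an unadjusted p below 0.05), and their median difference was 0.23. In deviations from group means their mean followed Cst3 (r = 0.96, and 0.80 without WT 4 and KO 5) and Cstb (r = 0.91 in both cases). For the 5 stefin A genes the r lay between 0.76 (Stfa1) and 0.84 (Stfa2l1), and without these arrays between 0.10 (BC100530) and 0.70 (Stfa2l1). WT 4 had the lowest list mean (-1.09, with the wild-type mean as 0), and there Cst3 and Cstb were lowest too. Cd163 did not exceed the background on the 9 arrays.

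The proteases that stefins and cystatins inhibit showed no called change. Of 11 papain-like cathepsins and legumain, 0 passed by limma with adjustment over all probes (0.139% of all probes did). An unadjusted p below 0.05 was reached by 3 of the 11, beside 8.06% of all probes. Of the 11, 8 had a higher and 3 a lower mean in the knockout, where 51.1% of all probes had a lower one. The median difference of the 11 was 0.32, beside -0.01 over all probes. Ctss, a cathepsin of antigen-presenting cells, read 0.93 ± 0.56 (SD, n = 4) for wild type against 1.81 ± 0.38 (SD, n = 5) for knockout, a difference of 0.87 ± 0.29 (SE; limma adjusted p = 0.463). Ctsk, best known from osteoclasts, lay at 0.67 ± 0.28 (SE), the aminopeptidase Ctsh at 0.48 ± 0.19 (SE) and the widely expressed Ctsb at 0.32 ± 0.14 (SE). Lgmn and Ctsl, which cystatin E/M inhibits, lay at 0.19 ± 0.20 and 0.33 ± 0.28 (SE) and were chosen after their values were seen. Ctsw, Ctsz and Ctso were the 3 with a lower mean, between -0.22 and -0.13, and were named for that after their values were seen.

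Cathepsins of other classes gave a mixed picture. Of 4 tested none passed by limma, and 2 had an unadjusted p below 0.05, beside 8.06% of all probes. Ctse, an aspartic protease of gastric surface cells, lay at 0.85 ± 0.24 (SE; limma adjusted p = 0.371), Ctsa at 0.33 ± 0.15 (SE), Ctsd at -0.33 ± 0.16 (SE) and Ctsg, a serine protease of neutrophils, at -0.52 ± 0.49 (SE). The 8 placental cathepsins were not well above background on any array. In deviations from group means the papain-like list mean followed Cstb (r = 0.80, and 0.81 without WT 4 and KO 5), but not Cst6 (r = 0.13 and -0.61).

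**Figure D5:**
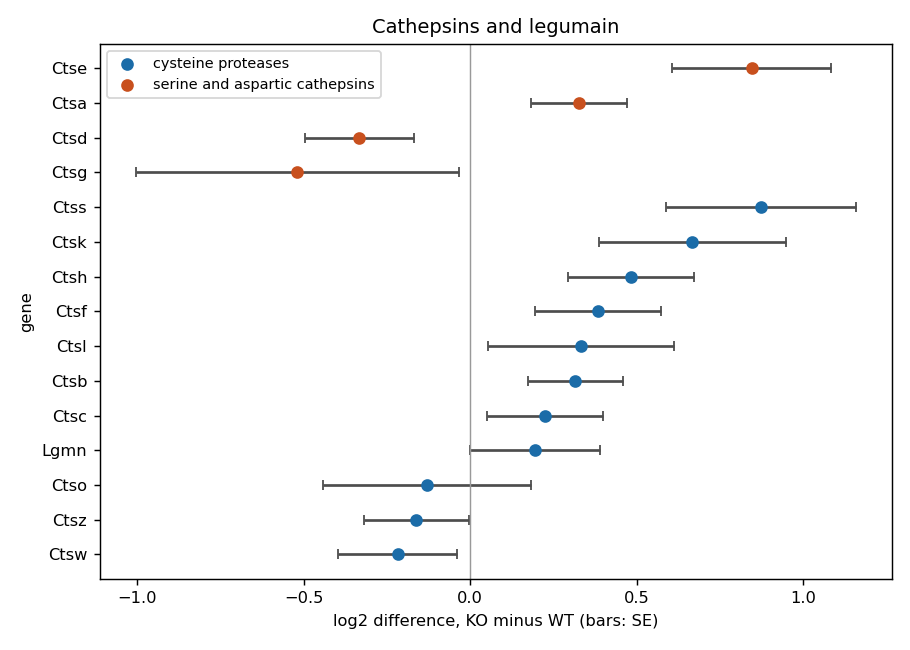
Log2 difference, knockout minus wild type, with its SE for 11 cysteine proteases and 4 cathepsins of other classes, sorted within class. Among the cysteine proteases 8 lie above 0, from Lgmn (0.19) to Ctss (0.87), and none of the 15 passed the test.

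Other relatives of the inhibitors were read as well. Of 8 further genes with a cystatin-like domain that had a probe, among them 2 outside the stefin A cluster (Cstdc1 and Cstdc2, on chromosome 2 in RefSeq), 4 were bright enough to be tested and none passed (limma; none at an unadjusted p below 0.05). Csta3 lay at -0.73 ± 0.57 (SE), Cstdc4 at 0.27 ± 0.46, Csta (Csta1 in RefSeq) at 0.20 ± 0.38 and Csta2 at 0.12 ± 0.54. Csta3 was well above background on 4 of the 9 arrays, so its size is uncertain. Cstdc6 exceeded the background clearly on 3 wild-type arrays and on none of the 5 knockout arrays, which makes it at least 1.66-fold higher in wild type, without a test. Of 8 type 2 cystatins outside the members, 2 were tested and neither passed (limma; none at an unadjusted p below 0.05). Cst8, known from testis, lay at 0.63 ± 0.32 (SE) and Cst11, known from epididymis, at 0.74 ± 0.41 (SE). Of the cystatin-fold proteins of plasma, which the liver makes, Kng1 lay at -1.60 ± 1.26 (SE), Ahsg at -1.44 ± 1.57 (SE) and Fetub at -1.17 ± 0.78 (SE), with none passing (limma; none at an unadjusted p below 0.05). Of the 10 gastric epithelium markers all had a higher mean in the knockout, with a median difference of 0.54. Over all probes, 51.1% had a lower mean. By limma, 5 of the 10 had an unadjusted p below 0.05, beside 8.06% of all probes. Gkn2, a gastrokine of surface cells, rose (1.77 ± 0.25 SE, limma adjusted p = 0.0336), where 0.0729% of all probes were called higher. Whether the Gkn2 call holds under other processing was not tested. The liver and pancreas markers had 7 tested genes, none of which passed by limma, with a median difference of 0.10. An unadjusted p below 0.05 was reached by 1 of the 7, beside 8.06% of all probes.

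The genes most like Stfa1 were sought over 20809 named autosomal probes. By level over the 9 arrays they were Ncoa3 (r = 0.98), Wfdc21 (0.98), Cep164 (0.97), Krt72 (0.96) and H60c (0.95). Wfdc21 belongs to another family of secreted inhibitor-like proteins and lay at -2.53 ± 0.83 (SE). By deviations from group means they were Eid1 (0.98), Myo18b, Plekha4, 1110002E22Rik and Fchsd2 (each 0.97), none of which was on the first list. For Cst6 the closest by deviations were Impa2 (0.99), Sbsn, a suprabasal gene that is also on the squamous list (0.99), Pla2g4e, Lyg1 and Acot1 (each 0.99). With 9 arrays and this many probes, high r values are frequent, and these names describe likeness only.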

How the data were processed

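Total RNA of newborn stomachs, labelled with Cy3, was read on Agilent 1-colour arrays, 5 knockout and 4 wild type, 1 mouse each. Per the file headers, the authors' spot intensity came from Feature Extraction 10.5.1.1 (the submitters' processing notes name 9.1), with background subtracted but without scaling across arrays. Flags of another kind (0 or 1 per spot) are in the deposited files too. The log2 values of the authors' series matrix have an unknown centring. Control and outlier spots were left out. Of 55681 probes, 30198 were well above background on at least 4 arrays and were tested with limma 3.58.1 in R 4.3.3 without covariates (two-sided, adjusted p below 0.05). Each listed gene was read from its brightest probe. Between 50.9% and 57.2% of spots were well above background and 0 saturated. Precision is limited by how many arrays there are. Coordinates are those of the array design (mm9), and promoters those of GRCm38.p6. Names came from RefSeq where the accession matched (26762 probes). On data simulated from 30198 probes, 82% of 4-fold and 93% of 8-fold changes were recovered. The changed probes were drawn at random, and the noise was normal and independent between probes. Shifts shared by many probes of 1 array, sex and slide were not simulated, so these rates do not carry over to the members.

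The members, lists and tests were chosen with earlier results of these data known. From each list the text names every gene past the threshold, otherwise up to 4 with the smallest p, and for Stfa1 and Cst6 the 5 most alike genes. The 21 probes with a missing value were left out. P-values set the genotype difference against the spread between these mice, moderated over all tested probes. Alternatives covered background correction, scaling, filters, probe choice, the series matrix, replicate and slide blocks, the Y-linked level and left-out arrays.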

Additional observations from a re-analysis of the deposited data

Results flagged for a closer look

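A sample far from the others of its group was found in 5 of 16 tests (8 members in 2 groups, Dixon's 95% limit, at which chance flags about 1 in 20). The tests share the same arrays and the members vary together, so they are not independent. All 5 flags fall on WT 4 or KO 5. WT 4 lay far below the other wild-type arrays for Cstb (3.45), Cst3 (4.24) and Cst6 (1.94). KO 5 lay far below the other knockout arrays for BC100530 (4.22) and Cst6 (2.10). On the same arrays the squamous differentiation list was lowest in its group, at -1.91 on WT 4 and -2.43 on KO 5 relative to the wild-type mean. For Cstb, by contrast, KO 5 was the highest array (4.81).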

How the results depend on the processing

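Over 23 alternatives, 2 of them chosen after seeing the data, 183 of 184 member values moved by less than 1 SD. This is the residual SD of the probe between mice within genotypes, which is wide. Cst6 went from -0.46 to 0.46 with the squamous list mean as a covariate and still counted among the 183. The count therefore does not show that the values were stable. Cstb within slide 1 (0.70) was the 1 value that moved further. Stfa1 ranged from -2.73 to -1.31, Stfa2 from -2.41 to -0.94 and Stfa2l1 from -1.98 to -0.21, each negative throughout. As Stfa1 and Stfa2 chose the set on these same arrays, their sign supports nothing further. Stfa3 ranged from -1.18 to 0.04, BC100530 from -1.11 to 0.07 and Cst6 from -1.10 to 0.46, each negative in 22 of 23 and positive with the squamous list mean as a covariate. Cst3 (-0.35 to 0.28) was negative in 16 and Cstb (-0.16 to 0.70) in 3. The number of members with a lower mean was 7, from 6 to 8 with 1 array left out, and 3 with the squamous list mean as a covariate.

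Probes called numbered 42. They were 12 without a filter, 11 with slide as a block, 5 within slide 1, 6 with the Y-linked level, 144 without WT 4 and KO 5, and 9 to 154 with 1 array left out (20 without KO 1, 13 without KO 3, 17 without KO 4, 13 without WT 1, 14 without WT 2, 9 without WT 3, 154 without WT 4). The replicate numbers do not pair the mice (r of same-numbered deviations -0.47 to 0.14). With the replicate block 6 probes were called, and Stfa1 lay at -1.98 and Stfa2 at -1.87. S100a9 lost its call, leaving 0 granulocyte genes, without the filter, with the replicate or slide block, within slides 1 and 4, with the Y-linked level, and without KO 3, KO 4, WT 1, WT 2 or WT 3 (range 0 to 1 with 1 array left out). In the squamous list 2 genes were called without WT 4 and KO 5, which were left out after the data were seen. The causes were not tested. Of the papain-like cathepsins with legumain and of the cornified envelope genes, 0 were called under each of the 23 alternatives. The other lists, among them the gastric epithelium list with Gkn2, were not run under them.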
